A study of Homo sapiens with 18 samples.

Results

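LS174T is an established human colorectal adenocarcinoma cell line with a mucin-producing, goblet-like character, known to carry a stabilising mutation of beta-catenin. Its response to calcitriol, the vitamin D hormone, was read from 6 of the 18 arrays of the study: 3 arrays of cells given 50 nM calcitriol for 16 hours and 3 arrays of control cells given ethanol, the solvent of calcitriol, for the same time. The colorectal cancer lines HCT116 and SW480 were treated in the same way, with 3 calcitriol and 3 ethanol arrays each, and serum stripped with charcoal, which removes steroid hormones, was listed for the treatments of all lines. Each array was an Illumina HT-12 BeadChip, which reads transcripts with short bead-bound probes in 1 colour. All named probes with a detection p under 0.05 on at least 3 of the 6 LS174T arrays were taken, which were 15155 of 30113 named probes, and they read 11408 genes, each through its brightest probe. LS174T is a single line, and the labels number the replicates without saying whether they came from separate cultures, so the p-values measure the spread between these arrays, which may be technical.

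Levels are normalized log2 intensities, on which a difference of 1 is a 2-fold change, and they are not compared between genes. The 682 named probes detected on exactly 3 arrays, just inside the rule, had a median level of 5.47 and a median absolute difference between treatments of 0.218. The 908 detected on exactly 2 arrays, just outside it, had a median level of 5.33 and a median absolute difference of 0.173. Of the 682, 64 passed through the calcitriol arrays alone and 52 through the ethanol arrays alone, so their genes had to differ between treatments. The rule likewise fixed the direction of every gene given below as undetected on all LS174T arrays of 1 treatment alone.

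Calcitriol acts through the vitamin D receptor VDR, a nuclear receptor that binds DNA as a heterodimer with a retinoid X receptor such as RXRA. The heterodimer recognises paired hexamers related to AGGTCA, classically arranged as direct repeats with a short spacer (DR3) and, in some drug-metabolism genes, as everted repeats. In the intestine the receptor is known for raising calcium uptake through the channel TRPV6 and for raising CYP24A1, the mitochondrial enzyme that inactivates calcitriol itself, and CYP3A4, a drug- and steroid-oxidizing cytochrome P450 that can also break down calcitriol.

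Promoter sequences from RefSeq (GRCh38.p14), spanning 250 bases before to 50 bases after the gene start, were matched by symbol for 16 of the 20 genes with the largest rises and 14 of the 20 with the largest falls. The promoters of CYP3A4, CYP3A5 and SULT1C2, 3 of the largest rises, are shown because they hold such paired hexamers. In the first 2 the capitals mark an everted repeat, TGAACT and AGGTCA separated by 6 bases, with its first base at -169 from the start of CYP3A4 (the minus strand of chr7:99784135-99784434) and at -113 from that of CYP3A5 (the minus strand of chr7:99679947-99680246). In SULT1C2 they mark a DR3 element, searched as a degenerate consensus in which several positions of each hexamer allow more than 1 base, with at most 1 mismatch to that consensus over both hexamers, with its first base at -109 (the plus strand of chr2:108288645-108288944). All are written 5′ to 3′ in the direction of the gene.
CYP3A4: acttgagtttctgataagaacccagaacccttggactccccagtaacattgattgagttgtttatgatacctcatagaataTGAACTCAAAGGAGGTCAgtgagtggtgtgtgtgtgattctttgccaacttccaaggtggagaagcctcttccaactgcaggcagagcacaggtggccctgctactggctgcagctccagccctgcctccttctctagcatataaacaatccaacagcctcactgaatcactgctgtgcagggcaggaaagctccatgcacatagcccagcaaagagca
CYP3A5: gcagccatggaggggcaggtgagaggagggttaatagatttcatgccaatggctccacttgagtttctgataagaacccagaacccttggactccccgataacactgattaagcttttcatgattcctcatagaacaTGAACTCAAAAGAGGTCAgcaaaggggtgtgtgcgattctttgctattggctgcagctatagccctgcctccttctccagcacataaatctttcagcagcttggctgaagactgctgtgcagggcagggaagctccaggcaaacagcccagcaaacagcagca
SULT1C2: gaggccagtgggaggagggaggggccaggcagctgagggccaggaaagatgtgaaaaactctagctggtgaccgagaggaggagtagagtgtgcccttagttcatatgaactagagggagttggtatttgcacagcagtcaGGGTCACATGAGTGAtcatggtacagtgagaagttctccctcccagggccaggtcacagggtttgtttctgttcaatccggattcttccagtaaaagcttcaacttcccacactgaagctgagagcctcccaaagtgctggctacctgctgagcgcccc

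Searched on both strands, this everted repeat was present in 3 of 35116 promoters (0.00854%), those of CYP3A4, CYP3A5 and ITGB1BP2, the last of which was not measured here. It is made of the hexamer AGGTCA and the reverse complement of AGTTCA, so these 3 searches overlap. AGGTCA alone was found in 6 of 16 promoters of the largest rises (37.5%), 5 of 14 of the largest falls (35.7%) and 14.1% of the 9170 measured genes with a promoter. The 6 include the relatives CYP3A4 and CYP3A5, and the 5 include the relatives UGT2B10, UGT2B11 and UGT2B15. Among all genes that rose, 50 of 297 promoters held AGGTCA (16.8%), and among all that fell, 60 of 377 (15.9%). AGTTCA was found in 4 of 16 promoters of the largest rises, 1 of 14 of the largest falls and 9.96% of the measured genes. It was in 10.8% of all that rose and 10.6% of all that fell. The DR3 element was found in 1 of 16 (SULT1C2), 1 of 14 (MT4) and 5.69%, against 5.29% of all promoters. Among all genes that rose, 23 of 297 promoters held it (7.74%), and among those that fell, 15 of 377 (3.98%). A match describes letters in this window only.

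Between 41.2% and 43.9% of 47323 probes were detected on each LS174T array. The median SD between replicates was 0.122 with ethanol and 0.13 with calcitriol. The first principal component, with 46.0% of the variance, held the ethanol arrays between -21.1 and -14.1 and the calcitriol arrays between 16.3 and 20.5, while the second, with 17.6%, set ethanol array 3 at -19.5 apart from ethanol arrays 1 and 2 at 7.89 and 7.21. All 13 markers of colorectal epithelium, among them EPCAM, VIL1, CDX2 and CDH17, were detected, with a mean level between 10.96 and 11.04 on the ethanol arrays and between 10.96 and 11.02 on the calcitriol arrays. Of 12 fibroblast markers 3 passed the detection rule and 5 were detected on no array, with mean levels of 5.39 to 5.63 and 5.34 to 5.39. Of 13 markers of leukocytes and endothelium 5 passed, among them LYZ (means of 7.44 with ethanol and 7.04 with calcitriol) and CD68 (8.54 and 8.61) on all 6 arrays and KDR on the calcitriol arrays alone (4.85 and 5.59), while PTPRC, CD3D, CD3E, CD163, PECAM1, CDH5 and VWF were detected on no array. The mean level over these 13 was 5.46 to 5.49 with ethanol and 5.41 to 5.49 with calcitriol. Among the fibroblast markers LUM, a matrix proteoglycan, fell by 0.74 (adjusted p = 0.00819, and 0.0743 in a fit of the 6 LS174T arrays alone).

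Calcitriol changed 864 of 11408 genes in LS174T (7.57%), 392 upward (3.44%) and 472 downward (4.14%), by limma's moderated test fitted to all 18 arrays with Benjamini-Hochberg adjustment over the 15155 probes, of which 7.10% were called (3.43% higher and 3.67% lower). At least 2-fold, 82 genes rose (0.719%) and 37 fell (0.324%), which is 1.04% together. With genes undetected in one treatment taken at their bound, these counts were 73 and 35, and 14 rises and 1 fall reached 2 log2 units. The median change was 0.63 among the genes that rose and -0.50 among those that fell, and -0.02 over all genes. The 3 arrays of each treatment lay apart for 2963 genes (26.0%). Every count of rises and falls in a gene list below stands beside the 3.44% higher and 4.14% lower over all genes. The split of the calls depended on scaling: when arrays were scaled to a common median and not quantile normalized, 345 genes rose and 188 fell, so that 64.7% of calls were rises against 45.4%. With the 6 LS174T arrays fitted alone, 253 rose and 246 fell. Without ethanol array 1, ethanol array 2 or calcitriol array 1, the falls numbered 302, 266 and 311.

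**Figure D1:**
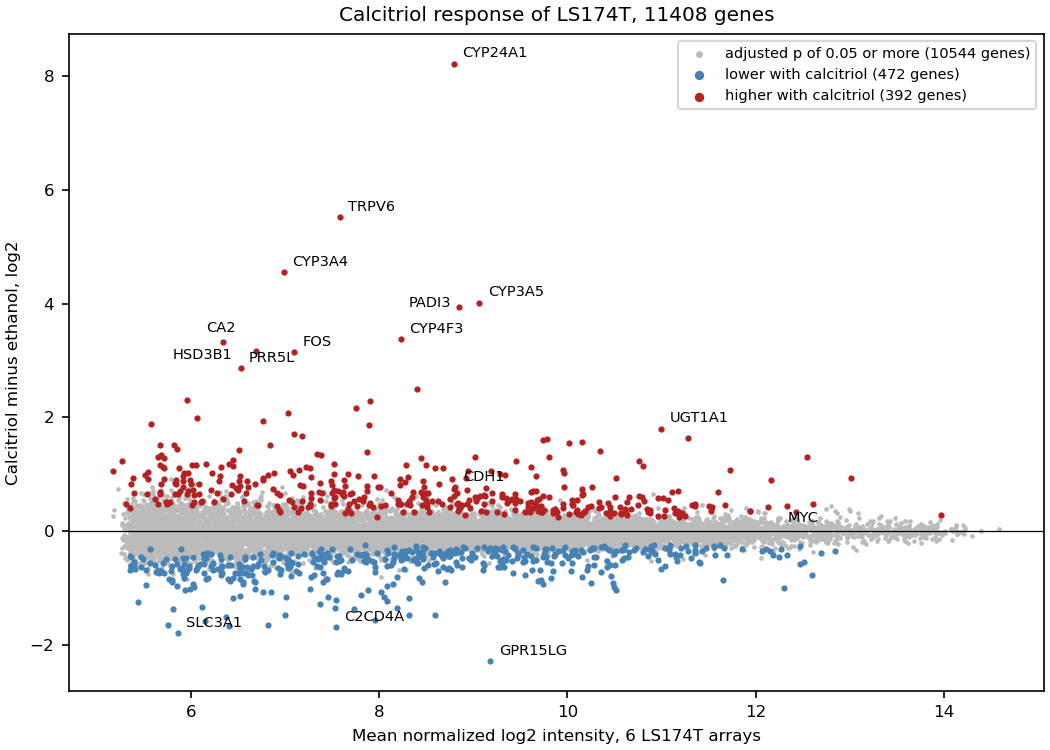
Change with calcitriol in LS174T (log2, vertical axis) against the mean normalized log2 intensity over the 6 LS174T arrays (horizontal axis), 1 point per gene for 11408 genes. The 392 genes that rose are red, the 472 that fell are blue and the others grey, and CYP24A1, TRPV6 and CYP3A4 lie above all other genes.

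The vitamin D receptor itself was present and did not pass the test. VDR stood at 8.44, 8.27 and 8.10 on the ethanol arrays and at 8.30, 8.35 and 8.65 on the calcitriol arrays, so that the groups overlapped, with a difference of 0.16 ± 0.18 (SE; adjusted p = 0.693). RXRA, its partner, stood at 10.46, 10.54 and 10.54 and at 10.04, 10.22 and 10.37. Its calcitriol arrays all lay below its ethanol arrays, with a difference of -0.31 ± 0.09 that missed the threshold (adjusted p = 0.0574). The fall of RXRA passed in 5 of 18 alternative limma fits, with adjusted p from 0.0215 to 0.328 over the 18. Of 10 measured receptors and coregulators 1 passed: PPARGC1A, a coactivator of nuclear receptors in energy metabolism, fell by 0.62 (adjusted p = 0.00133), and the list had a median of -0.08.

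Of 19 measured canonical vitamin D targets, a list of genes known to respond to the receptor in one tissue or another, 12 rose and 1 fell (68.4% called, with 7.57% of all genes called). Of the 12, CYP24A1, TRPV6, CYP3A4 and CA2 passed the detection rule only through the calcitriol arrays, so their direction was fixed by it and the share is not support for the list. Leaving out 1 array gave 10 to 12 rises. CYP24A1 stood at 4.87, 4.61 and 4.57 on the ethanol arrays, none of which detected it, and at 13.03, 12.96 and 12.72 on the calcitriol arrays. It went from below detection to detection on every calcitriol array, at least 175-fold higher (adjusted p = 6.47e-18). TRPV6 stood at 4.98, 4.70 and 4.77, undetected, and at 10.31, 10.32 and 10.41, at least 29.8-fold higher (adjusted p = 1.16e-16). Its second probe was likewise undetected with ethanol and passed upward. An "at least" fold here compares the calcitriol mean with the dimmest signal that still counted as detected on the ethanol arrays, since an undetected probe gives only a bound.

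CYP3A4, whose everted repeat is shown above, stood at 4.77, 4.70 and 4.66, undetected, and at 9.38, 9.11 and 9.32, at least 14.1-fold higher (adjusted p = 2.43e-14). CA2, a carbonic anhydrase that interconverts carbon dioxide and bicarbonate, stood at 4.64, 4.73 and 4.68, undetected, and at 8.04, 8.02 and 7.94, at least 5.86-fold higher (adjusted p = 9.24e-13). The ethanol values of these 4 genes are background signal. SULT1C2, a sulfotransferase with the DR3 element shown above, stood at 6.89, 6.98 and 7.01 and at 8.67, 8.96 and 8.84, a 3.64-fold rise (adjusted p = 1.66e-08). The only target to fall was BCL6, a transcriptional repressor, by 0.52 (adjusted p = 0.00641), and its call was lost with median scaling and with the 6 arrays alone (adjusted p up to 0.118).

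The remaining risers of that list were smaller. SERPINB1, an inhibitor of neutrophil proteases, rose by 1.31 (adjusted p = 4.68e-08), and EFL1, a ribosome assembly factor, by 1.24 (adjusted p = 1.37e-06). HBEGF, a growth factor of the EGF family, rose by 0.52 and NFKBIA, the inhibitor that retains NF-kB in the cytoplasm, by 0.39. CD14, a coreceptor for bacterial lipopolysaccharide, rose by 0.64 at the edge of the threshold (adjusted p = 0.0497). The call of CD14 was lost without any one of ethanol arrays 1 and 2 and calcitriol arrays 1 to 3, and that of NFKBIA without ethanol array 1, ethanol array 2 or calcitriol array 1 (adjusted p up to 0.217 and 0.0753).

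E-cadherin, the adhesion protein of adherens junctions, is encoded by CDH1, whose induction the study also assessed by qRT-PCR in further lines. CDH1 stood at 8.47, 8.52 and 8.26 with ethanol and at 9.14, 9.34 and 9.11 with calcitriol. The groups did not overlap, and the 1.72-fold rise passed the test (adjusted p = 4.07e-05).

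**Figure D2:**
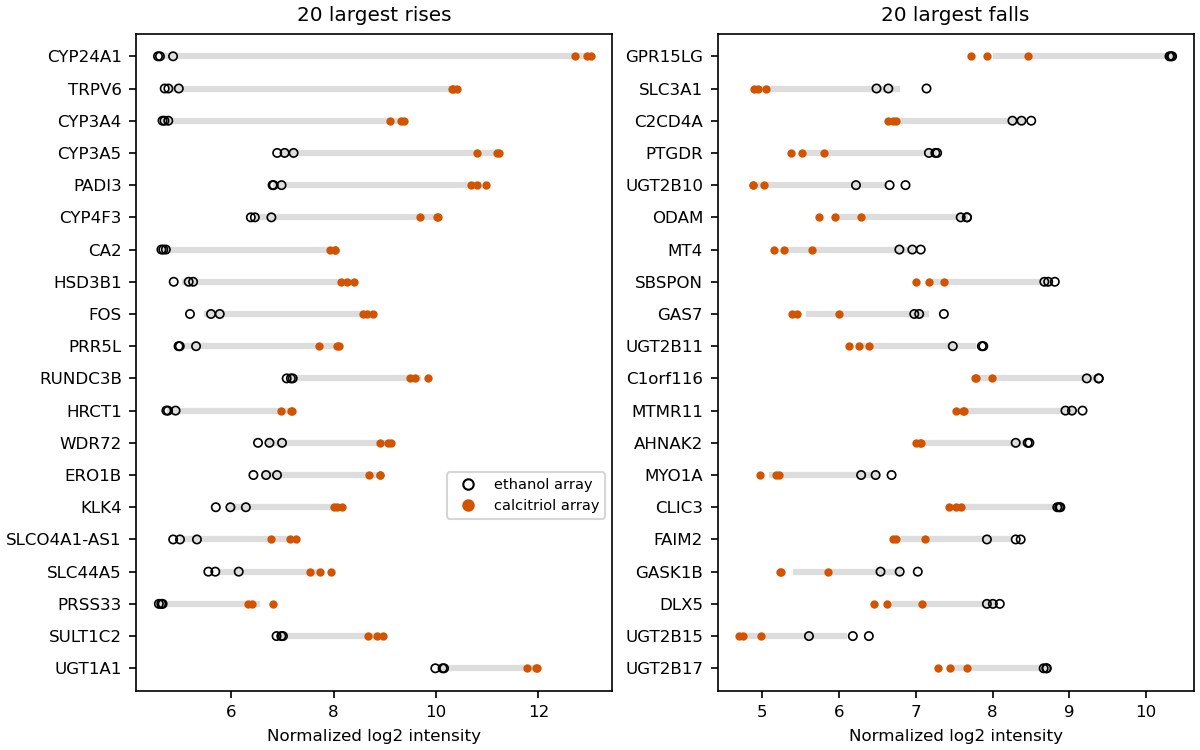
Normalized log2 intensity (horizontal axis) of the 20 genes with the largest rises (left) and the 20 with the largest falls (right) among genes past the threshold whose arrays did not overlap. Open circles are the 3 ethanol arrays, filled circles the 3 calcitriol arrays and grey bars join the means; 9 of the rises start from levels at which no ethanol array detected the gene.

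Of 15 measured phase 1 enzymes, which oxidize drugs, steroids and fatty acids, 7 rose, 2 fell and the others did not pass. CYP3A4, MAOA and CYP2B6 among the risers passed the detection rule only through the calcitriol arrays, so that their direction was fixed by it. The same counts were obtained when any 1 array was left out. CYP3A5, a close relative of CYP3A4 that also carries the everted repeat, stood at 7.04, 6.90 and 7.22 and at 11.19, 11.23 and 10.80, a 16.2-fold rise (adjusted p = 5.32e-10). The 2 genes are similar in sequence, and cross-hybridization of their probes was not tested. CYP4F3, which inactivates leukotriene B4, stood at 6.38, 6.79 and 6.46 and at 10.04, 10.03 and 9.69, a 10.4-fold rise (adjusted p = 5.32e-10), with its 2 probes at 3.37 and 1.07. MAOA, the mitochondrial monoamine oxidase, was undetected with ethanol at 5.02, 4.88 and 4.84 and reached 6.52, 6.39 and 6.39, at least 1.98-fold higher (adjusted p = 1.08e-08).

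The relatives CYP4F12 and CYP4F2 rose by 1.28 and 0.99 (adjusted p = 7.56e-07 and 9.6e-05). CYP2B6, another drug-oxidizing P450, went from undetected on all ethanol to detected on all calcitriol arrays, at least 1.47-fold higher (adjusted p = 1.86e-05). Those that fell were CYP4X1, by 0.73, and CYP2J2, an epoxygenase of arachidonic acid, by 0.60 (adjusted p = 0.00594 and 0.00862). The call of CYP4X1 was lost with the 6 arrays alone and that of CYP2J2 with median scaling. HSD3B1, a dehydrogenase of steroid hormone synthesis, led the steroid and retinoid enzymes, of which 1 of 17 rose and 2 fell. It stood at 4.88, 5.26 and 5.17, undetected, and at 8.41, 8.27 and 8.15, at least 7.08-fold higher (adjusted p = 3.29e-09). HSD3B1 passed the detection rule only through the calcitriol arrays, so the direction of this single rise was fixed by it. ALDH1A3 and RDH10, which make retinoic acid and retinal, fell by 0.66 and 0.56 (adjusted p = 0.00064 and 0.00122, the latter 0.0829 with median scaling).

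Of 21 measured conjugating enzymes, which attach sugar acids, sulfate or acetyl groups, 4 rose and 6 fell. UGT2B10, UGT2B15 and UGT2A3 among the falls passed the detection rule only through the ethanol arrays, so their direction was fixed by it. The rises numbered 2 without calcitriol array 1 and 2 with the 6 arrays alone. UGT1A1, the glucuronosyltransferase of bilirubin, stood at 9.99, 10.13 and 10.16 and at 11.97, 11.95 and 11.78, a 3.5-fold rise (adjusted p = 1.5e-09). Its gene shares downstream exons with the other UGT1A members, which did not pass (UGT1A10 0.39, UGT1A3 0.23, UGT1A6 0.22). Among the UGT2B enzymes, which conjugate androgens and other steroids, 4 fell. UGT2B10 stood at 6.22, 6.66 and 6.87 and at 5.03, 4.88 and 4.89, where no calcitriol array detected it, at least 2.15-fold lower (adjusted p = 2.79e-07).

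UGT2B15 was also undetected with calcitriol and at least 1.49-fold lower (adjusted p = 2.06e-05). UGT2B11 fell 2.79-fold (adjusted p = 0.000253) and UGT2B17 2.34-fold (adjusted p = 3.86e-05). UGT2A3, their neighbour, was at least 1.2-fold lower (adjusted p = 0.00538, and up to 0.162 with no background correction or another variance prior). These genes are near-identical in parts, so probes may read more than 1 of them, while UGT2B7 of the same family differed by -0.08 and did not pass. PAPSS2, which makes the sulfate donor, rose by 0.42 (adjusted p = 0.00982, and 0.056 without calcitriol array 1). Among 8 measured transporters of drugs and organic ions 1 rose: SLCO4A1, by 0.75 (adjusted p = 6.92e-05). SLCO4A1-AS1, a noncoding RNA antisense to it, was undetected with ethanol and at least 3.06-fold higher with calcitriol (adjusted p = 1.33e-06).

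Of 13 measured genes of calcium and magnesium transport 4 rose and none fell (30.8% called, with 7.57% of all genes called). TRPV6 among them passed the detection rule only through the calcitriol arrays, so its direction was fixed by it. Besides TRPV6, ATP2B1, the pump that exports calcium at the basolateral membrane, stood at 7.39, 7.51 and 7.46 and at 8.81, 8.31 and 8.18, a 1.97-fold rise (adjusted p = 0.000817), with its 2 probes at 1.06 and 0.98. CALB2, a calcium-binding protein, rose by 0.57 (adjusted p = 0.00879), though its other probe differed by 0.02. ITPR1, a calcium release channel of the endoplasmic reticulum, rose by 0.46 (adjusted p = 0.0325), a call lost without ethanol array 1, 2 or 3 or calcitriol array 1 (adjusted p up to 0.154). CALB1 differed by 0.32 and did not pass. In the list of ion and water transport CA12, a membrane carbonic anhydrase, rose 2.36-fold (adjusted p = 0.000498) beside CA2, and 2 of 14 members rose in all. TRPM6 and S100G, the calbindin of the intestine, did not pass the detection rule.

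Proteases and protein-modifying enzymes of the epithelium formed the next group, in which 6 of 24 members rose and 3 fell. The falls numbered 1 without ethanol array 2 or calcitriol array 1, 2 without each of the other arrays, 1 with the 6 arrays alone and 0 with median scaling. PADI3, which converts arginine in proteins to citrulline, stood at 6.98, 6.81 and 6.83 and at 10.69, 10.80 and 10.98, a 15.4-fold rise (adjusted p = 3.87e-12). Of the kallikreins, secreted serine proteases encoded together on chromosome 19, 5 rose. KLK6 stood at 10.51, 10.41 and 10.47 and at 12.10, 12.18 and 12.04, a 3.12-fold rise (adjusted p = 1.03e-07). KLK4, outside that list but among the largest rises, rose 4.25-fold (adjusted p = 3.25e-08).

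KLK7 and KLK8 each rose by 0.97 (adjusted p = 0.000935 and 0.000827), although a second probe of KLK8 differed by 0.05, and KLK15 rose by 1.03 (adjusted p = 0.000286). KLK10, KLK11, KLK12 and KLK1 did not pass, at 0.44, -0.03, 0.05 and 0.05. PRSS33, another secreted serine protease, was undetected with ethanol at 4.63, 4.59 and 4.66 and reached 6.32, 6.40 and 6.81, at least 2.09-fold higher (adjusted p = 4.52e-08). Its direction was fixed by the detection rule. TMPRSS2, a transmembrane serine protease, rose by 0.60 (adjusted p = 0.000171). Of 10 serpins and cystatins, which block proteases, 1 rose and 2 fell. SERPINB5 (maspin) fell 2.04-fold (adjusted p = 2.04e-07) and SERPINE2 fell 1.61-fold (adjusted p = 7.38e-05), opposite to SERPINB1.

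**Figure D3:**
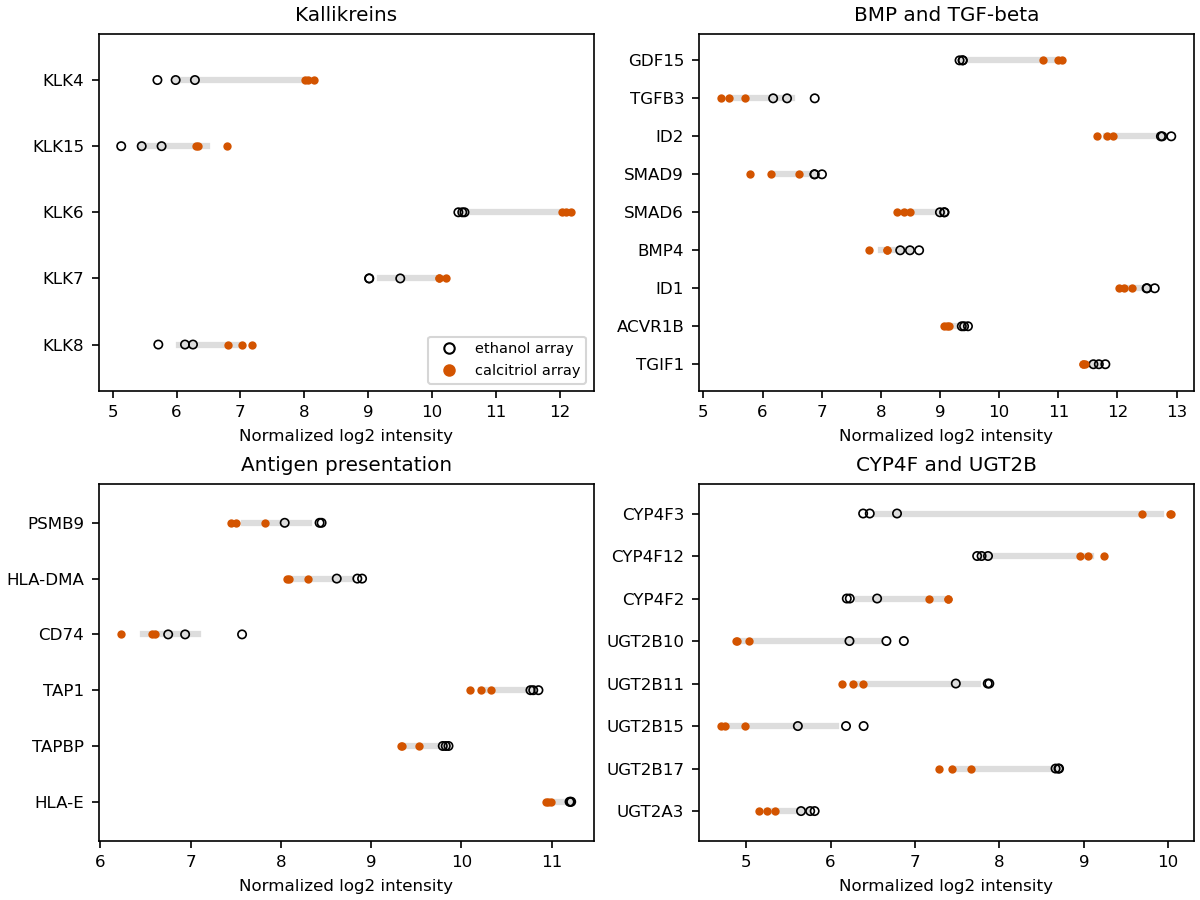
Normalized log2 intensity (horizontal axis) in the 3 ethanol arrays (open) and 3 calcitriol arrays (filled) for kallikreins, BMP and TGF-beta genes, antigen presentation genes, and CYP4F and UGT2B enzymes of LS174T. Grey bars join the means. Only genes past the threshold are shown, and the members that did not pass are left out. The kallikreins and CYP4F genes shown lie higher with calcitriol, and the UGT2B and antigen presentation genes shown lie lower.

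Genes of cell contacts moved in both directions. Beside the rise of CDH1, 2 of 12 adherens junction genes fell: CDH3 (P-cadherin) by 0.45 (adjusted p = 0.024) and CDHR1, which no calcitriol array detected, at least 1.13-fold (adjusted p = 0.0156). The direction of CDHR1 was fixed by the detection rule. The call of CDH3 was lost without ethanol array 1, ethanol array 2 or calcitriol array 1, and that of CDHR1 without ethanol array 3 or calcitriol array 3 (adjusted p up to 0.119 and 0.0684). The list had a median of -0.20, or -0.18 with CDHR1 at its bound. Of 15 tight junction genes 1 rose and 1 fell. CLDN2, a claudin that forms cation-permeable pores, stood at 8.96, 8.87 and 8.98 and at 10.47, 10.40 and 10.76, a 3.04-fold rise (adjusted p = 4.95e-07). CGN (cingulin) fell by 0.43 (adjusted p = 0.0024, and 0.099 with median scaling).

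Desmosomal and keratin genes gave 4 falls and 2 rises among 15, with a median of -0.24. KRT80 fell by 0.81 (adjusted p = 0.000395) and DSP, which ties desmosomes to keratin filaments, by 0.60 (adjusted p = 0.000132). KRT19 fell by 0.58 (adjusted p = 0.000175), and DSC3 fell by 0.77 (adjusted p = 0.0362, with a second probe at -0.26). PKP3 rose by 0.70 (adjusted p = 0.0311) with overlapping arrays. The call of DSC3 was lost without any 1 of the 6 arrays (adjusted p up to 0.111), and that of PKP3 without ethanol array 1 or 2 or calcitriol array 1 or 3 (adjusted p up to 0.154). No rise remained in this list without ethanol array 1, ethanol array 2, calcitriol array 1 or calcitriol array 3.

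Of 18 integrin and matrix adhesion genes 3 fell: ITGB4 by 0.52, CD44 by 0.42 and ITGB5 by 0.26 (adjusted p = 0.0315, 0.0167 and 0.0284). The number of falls in that list ranged from 0 to 2 when 1 array was left out (0 without ethanol array 2, and 1 without ethanol array 1, calcitriol array 2 or calcitriol array 3) and was 0 with the 6 arrays alone. Of 6 measured genes of mesenchymal transition 0 passed by limma. All 6 lay below 0, as did the median over all genes (-0.02), and 4 had an unadjusted p under 0.05. The share of all genes at that p was not computed.

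Markers of intestinal cell lineages did not move as blocks. Of 22 goblet and secretory genes 2 rose and 5 fell, with a median of -0.20, and 2 rises and 5 falls were also counted with each array left out. RETNLB, a goblet cell lectin with antibacterial action, fell 2.2-fold (adjusted p = 0.00196), though its second probe differed by 0.27. TPSG1, a membrane tryptase, fell 2.1-fold (adjusted p = 0.000361). ATOH1, which commits intestinal precursors to secretory fates, fell 1.95-fold (adjusted p = 0.000681, and 0.0626 with the 6 arrays alone). BCAS1 was undetected with ethanol and at least 1.26-fold higher (adjusted p = 0.00194). It was 1 of 2 measured members that passed the detection rule only through the calcitriol arrays. Its direction, and so its part in the count of rises, was fixed by that rule. FCGBP and SPINK4 also fell, by 0.59 and 0.40 (adjusted p = 0.00225 and 0.00163). The call of SPINK4 was lost with median scaling, with the 6 arrays alone and with another variance prior (adjusted p up to 0.137). The mucin gene MUC2 differed by -0.18 and the trefoil genes TFF1 and TFF3 by -0.08 and 0.15, and none of these 3 passed.

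Of 19 enterocyte and brush border genes CA2 rose and MYO1A, a myosin of the microvilli, fell from 6.48, 6.69 and 6.29 to 5.19, 4.97 and 5.22, where it was undetected, at least 2.01-fold lower (adjusted p = 1.04e-06). CA2 passed the detection rule only through the calcitriol arrays and MYO1A only through the ethanol arrays, so both directions were fixed by it. CDX1, VIL1 and KRT20 differed by -0.32, 0.01 and -0.22 and did not pass. Among the epithelial markers ELF3, an epithelial transcription factor, and LGALS4, a galectin of the gut, rose by 0.69 and 0.47 (adjusted p = 0.00437 and 0.0143, the latter 0.0657 without calcitriol array 1). Of 5 enteroendocrine genes 0 passed by limma, and 1 had an unadjusted p under 0.05.

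The Wnt pathway, which in this line is driven by mutant beta-catenin, gave 6 falls and 1 rise among 22 genes, with a median of -0.12. NKD1, a feedback inhibitor, stood at 7.87, 8.24 and 8.01 and at 6.91, 6.75 and 6.98, a 2.24-fold fall (adjusted p = 0.000158). SP5, a transcription factor induced by Wnt, fell to undetected, at least 1.97-fold lower (adjusted p = 0.00522), a direction fixed by the detection rule. APCDD1, an inhibitor of Wnt at the membrane, fell by 0.73 (adjusted p = 0.0299), a call lost without ethanol array 1 or 2 or calcitriol array 1 or 3 (adjusted p up to 0.13). AXIN2 and RNF43, 2 further feedback inhibitors, fell by 0.35 and 0.51 (adjusted p = 0.00899 and 0.00279). With median scaling 2 genes of the list fell in place of 6, and the calls of AXIN2 and RNF43 were among those lost (adjusted p = 0.0971 and 0.0688 at their highest).

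MYC, a further Wnt target, stood at 12.28, 12.21 and 12.19 and at 12.23, 12.35 and 12.24, with overlapping groups and a difference of 0.05 ± 0.08 (adjusted p = 0.803). LGR5, a Wnt coreceptor that marks intestinal stem cells, went up, from 7.31, 7.48 and 7.16 to 7.87, 7.94 and 8.0 (adjusted p = 0.0197). Its call was lost without ethanol array 1 or 3 or calcitriol array 2 or 3 (adjusted p up to 0.0672). Of 17 stem cell genes 2 rose and 5 fell, or 2 and 2 with median scaling. LRIG1, a brake on EGF receptors, rose by 0.60 on its brighter probe and 0.67 on the other (adjusted p = 0.000634 for the former). PTPRO and RGMB fell by 1.18 and 0.77 (adjusted p = 1.34e-06 and 0.000579). Of 15 Notch pathway genes HES1 and HES6 fell, by 0.48 and 0.37 (adjusted p = 0.0108 and 0.00474). The call of HES1 was lost without ethanol array 1 or calcitriol array 1 (adjusted p up to 0.0537), and with median scaling neither passed.

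BMP and TGF-beta genes lay lower as a list: 8 of 22 fell, 1 rose and only GDF15 lay above 0, with a median of -0.29 (-0.21 with median scaling, where 4 fell). ID2, a transcriptional target of BMP that blocks differentiation factors, stood at 12.73, 12.76 and 12.91 and at 11.93, 11.82 and 11.66, a 1.99-fold fall (adjusted p = 1.39e-06), and its other probe fell by 1.16. ID1 fell by 0.41 (adjusted p = 0.03). The ligands TGFB3 and BMP4 fell by 1.01 and 0.49 (adjusted p = 0.000856 and 0.0037, the latter 0.0959 with the 6 arrays alone), and SMAD6, an inhibitor within the pathway, by 0.66 (adjusted p = 0.000961). SMAD9, a BMP signal transducer, fell by 0.74 (adjusted p = 0.021, with a second probe at -0.31).

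GDF15, a stress-induced ligand of the same superfamily, went the other way, from 9.33, 9.38 and 9.38 to 10.74, 10.99 and 11.07, a 2.97-fold rise (adjusted p = 1.35e-06). Falls in the list numbered 4 without ethanol array 2 and 4 without calcitriol array 3. The calls of SMAD9 and ID1 were both lost without ethanol array 1 or 2 or calcitriol array 3, and in addition without calcitriol array 2 for SMAD9 and calcitriol array 1 for ID1 (adjusted p up to 0.0935 and 0.121).

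Of 26 Eph receptors, ephrins and semaphorins, which guide cell positioning, 4 rose and 1 fell. SEMA3B, a secreted semaphorin, stood at 6.40, 6.56 and 6.08 and at 7.85, 8.23 and 7.97, a 3.19-fold rise (adjusted p = 7.44e-06), with its probes at 1.68 and 1.61. SEMA6A rose by 0.71 (adjusted p = 0.000185) and the receptor EPHB4 by 0.45 (adjusted p = 0.000961). EPHA4 fell 2.31-fold (adjusted p = 1.9e-05). EPHA2 rose by 0.48 with overlapping arrays (adjusted p = 0.0311), a call lost without ethanol array 2 or 3 or calcitriol array 1 or 2 (adjusted p up to 0.128).

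Immediate early genes gave 4 rises and 2 falls among 22. FOS, a subunit of the transcription factor AP-1, stood at 5.20, 5.78 and 5.61, detected on 2 of 3 ethanol arrays, and at 8.65, 8.78 and 8.58, an 8.84-fold rise (adjusted p = 2.02e-10). EGR1 and MAFF rose by 0.71 and 0.85 (adjusted p = 9.27e-05 and 0.00107). JUN, which pairs with FOS in AP-1, fell from 7.82, 7.70 and 7.46 to 7.16, 7.15 and 7.19 (adjusted p = 0.00462, and up to 0.0967 with median scaling or with the 6 arrays alone). ATF3 fell by 0.47 (adjusted p = 0.0223). FOSB, FOSL1, JUNB and JUND lay at 0.32, 0.33, 0.17 and 0.08 and did not pass.

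In the list of ERK feedback and growth factor ligands 5 of 25 rose and 3 fell. The ligand EREG (epiregulin) rose 2.15-fold (adjusted p = 0.00027). PHLDA1 and ERRFI1, which restrain receptor signalling, rose by 0.93 and 0.74 (adjusted p = 1.27e-05 and 6.87e-05). SPRY4, a feedback inhibitor of ERK signalling, fell by 0.38 (adjusted p = 0.00408, and up to 0.177 with median scaling or with the 6 arrays alone), while DUSP6 and SPRY2 lay at -0.19 and -0.26 and did not pass. No fall remained with median scaling, and 1 remained without ethanol array 1.

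Of 25 genes of PI3K, mTOR and insulin signalling 2 rose and 3 fell. PRR5L passed the detection rule only through the calcitriol arrays and PIK3R3 only through the ethanol arrays, so both directions were fixed by it. PRR5L, a partner of the mTOR complex that controls AKT, was undetected with ethanol at 4.97, 5.31 and 5.00 and reached 8.07, 8.10 and 7.71, at least 5.71-fold higher (adjusted p = 3.82e-10). FOXO1, a transcription factor held back by AKT, rose by 0.61 (adjusted p = 0.00259). PIK3R3, a regulatory subunit of PI3K, fell to undetected, at least 1.69-fold lower (adjusted p = 0.000148). IRS2, an adaptor of the insulin receptor, fell by 0.45 (adjusted p = 0.0321), a call lost without ethanol array 2, calcitriol array 1 or calcitriol array 2 (adjusted p up to 0.154).

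Of 21 growth arrest genes 1 rose and 5 fell, or 1 and 1 with median scaling, with a median of -0.11. GADD45A, a growth arrest and DNA damage gene, rose 2.08-fold (adjusted p = 1.39e-06), with its probes at 1.06 and 1.29. SFN (14-3-3 sigma) fell by 0.61 (adjusted p = 0.00137), TP53INP1 by 0.60 (adjusted p = 0.023) and TOB1 by 0.45 (adjusted p = 0.00443, and 0.0591 with median scaling). CDKN1A, the cyclin-dependent kinase inhibitor p21, stood at 12.16, 12.44 and 12.19 and at 11.92, 12.02 and 11.93, lower by 0.31 at the edge of the threshold (adjusted p = 0.0491). Its call was lost without any 1 of the 6 arrays (adjusted p up to 0.216), and that of TP53INP1 was kept only without calcitriol array 1. Falls in the list numbered 2 without ethanol array 1, ethanol array 2 or calcitriol array 2, and 3 without each of the others.

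Of the DNA replication and of the mitotic genes 6.67% each were called, with 7.57% of all genes called. Of 30 DNA replication genes 27 lay above 0, with a median of 0.15 beside -0.02 over all genes. Of these 2 passed: RRM2, a subunit of ribonucleotide reductase, rose by 0.39 (adjusted p = 0.0197) and CDC6, a replication licensing factor, by 0.65 (adjusted p = 0.0321). Neither passed without ethanol array 1, calcitriol array 1 or calcitriol array 2 (adjusted p up to 0.105 for RRM2 and 0.16 for CDC6). Of 30 mitotic genes CENPE and CENPF, motor and matrix proteins of the kinetochore, fell by 0.50 and 0.41 (adjusted p = 0.0342 and 0.0418). Both calls were lost without ethanol array 1 or 2 or calcitriol array 2 or 3 (adjusted p up to 0.15 and 0.157), and MKI67 differed by -0.09. Of 30 ribosome biogenesis and MYC target genes 24 lay above 0, with a median of 0.11 beside -0.02 over all genes. NOP56 was the 1 member called (3.33%) and rose by 0.36 (adjusted p = 0.0202, a call kept only without ethanol array 3).

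Stress and metabolic lists differed in their share of calls, set beside 7.57% of all genes. The share was 16% for integrated and endoplasmic reticulum stress, 18.5% for cholesterol and fatty acid synthesis and 14.8% for glycolysis and hypoxia. It was 12.5% for metallothioneins and zinc transport and 11.5% for redox genes. Of 25 genes of the integrated and endoplasmic reticulum stress responses 1 rose and 3 fell, with TRIB3 at -0.50 (adjusted p = 0.00122), ATF3 at -0.47 and DDIT3 (CHOP) at -0.38 (adjusted p = 0.04). DDIT4, an inhibitor of mTOR, rose by 0.42 (adjusted p = 0.0248). The call of DDIT3 was lost without any 1 of the 6 arrays, those of ATF3 and DDIT4 with 5 of the 6 left out in turn (all but ethanol array 1 for ATF3 and all but ethanol array 3 for DDIT4), and none of the 3 falls passed with median scaling (adjusted p up to 0.144). ERO1B, an oxidase that forms disulfide bonds in the endoplasmic reticulum, rose 4.5-fold outside that list, with 2 probes at 2.16 and 2.17 (adjusted p = 6.68e-06).

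Cholesterol and fatty acid synthesis gave 3 rises and 2 falls among 27 genes. SREBF2, the regulator of sterol synthesis, rose from 6.18, 5.55 and 5.75 to 6.84, 6.95 and 6.59 (adjusted p = 0.00462), while TM7SF2, a sterol reductase, fell by 0.63 (adjusted p = 0.000269). LSS, which closes the sterol ring, fell by 0.33 and NSDHL rose by 0.32 (adjusted p = 0.022 and 0.0348), both lost with 4 of the 6 arrays left out in turn (each of ethanol arrays 1 and 2 and calcitriol array 2 for both, with calcitriol array 1 for LSS and 3 for NSDHL; adjusted p up to 0.101 and 0.125). Of 27 glycolysis and hypoxia genes HK2 rose by 0.47 and PCK2, NDRG1 and PFKFB4 fell by 0.52, 0.46 and 0.34 (adjusted p = 0.000468, 0.000267, 0.00221 and 0.0486). The call of PFKFB4 was lost without any 1 of the arrays (adjusted p up to 0.202).

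In redox metabolism TXNRD1, thioredoxin reductase, rose by 0.55 (adjusted p = 0.000612). SLC3A1, a subunit of the cystine transporter, stood at 6.49, 7.14 and 6.64 and at 5.05, 4.95 and 4.89, undetected, at least 2.42-fold lower (adjusted p = 2.71e-07). Of 16 metallothionein and zinc transport genes MT4 and MT2A fell, by 1.58 and 0.45 (adjusted p = 1.43e-06 and 0.00492, the latter up to 0.118 with median scaling or the 6 arrays alone). None of 29 respiratory chain subunits and none of 17 heat shock chaperones passed by limma, with medians of -0.00638 and -0.000327, and 2 in each list had an unadjusted p under 0.05.

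Antigen presentation genes lay lower. Of 17 measured members 6 fell and none rose (35.3% called), with a median of -0.21, or -0.11 with median scaling, where 4 fell. TAP1, a subunit of the peptide transporter that loads MHC class I, stood at 10.77, 10.85 and 10.80 and at 10.10, 10.33 and 10.22, a 1.51-fold fall (adjusted p = 0.000261). PSMB9, a subunit of the immunoproteasome, fell by 0.72 on its brighter probe (adjusted p = 0.00853, with -0.10 on the other), and HLA-DMA, which helps load MHC class II, fell by 0.64 (adjusted p = 0.00593). CD74, the invariant chain of class II, fell by 0.62 (adjusted p = 0.0468). TAPBP and HLA-E completed the calls at -0.43 and -0.25 (adjusted p = 0.0184 and 0.0411). HLA-C, B2M and PSMB8 lay at -0.22, -0.16 and -0.21 and did not pass. The calls of CD74 and HLA-E were lost with at least 5 of the 6 arrays left out in turn and that of TAPBP without ethanol array 1 or 2 or calcitriol array 1 or 3 (adjusted p up to 0.188, 0.117 and 0.0731). The falls numbered 3 without ethanol array 2, calcitriol array 1 or calcitriol array 3 and 4 without each of the other arrays.

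Other immune lists were mixed. Of 27 interferon response genes 2 rose and 2 fell, among them ISG20 at 0.52 (adjusted p = 0.00462), and IFIT3 (0.73), OASL (undetected with calcitriol, at least 1.08-fold lower) and IFI6 (-0.30) lay near the threshold (adjusted p = 0.0434, 0.0376 and 0.0472, each lost with at least 4 of the 6 arrays left out in turn). For OASL the detection rule fixed the direction. NFKBIZ, a coactivator of NF-kB, fell by 0.68 and PIGR, the receptor that carries IgA across the epithelium, fell from 11.41, 11.32 and 11.24 to 10.50, 10.72 and 10.75 (adjusted p = 0.000373 and 0.000143). F3, the tissue factor that starts coagulation, rose 2-fold (adjusted p = 0.00035) and PLAT, a plasminogen activator, by 0.65 (adjusted p = 0.00584, and 0.0822 with no background correction). PROC (protein C) fell to undetected, at least 1.43-fold lower (adjusted p = 0.0146, and lost without ethanol array 2, calcitriol array 1 or calcitriol array 3, up to 0.063). Its direction, too, was fixed by the detection rule. CFB, a complement factor, fell by 0.55 (adjusted p = 0.046), a call kept only without ethanol array 1 among the fits with an array left out.

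Apoptosis regulators gave 1 rise, BID, by 0.46 (adjusted p = 0.00223), among 27. Of 21 S100 and annexin genes 3 rose and 2 fell, led by ANXA11 at 0.70 (adjusted p = 8.18e-05). The rises numbered 1 without ethanol array 1 or calcitriol array 1 and 1 with median scaling, and no fall passed with median scaling or with the 6 arrays alone. S100A11 fell by 0.40 (adjusted p = 0.00786, and up to 0.192 with median scaling or with the 6 arrays alone). STAP2, an adaptor protein, was the 1 gene whose probes were called in opposite directions, with 0.39 on one probe (adjusted p = 0.0498) and -0.73 on another (adjusted p = 0.00863), while its brightest probe gave 0.26 and did not pass.

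**Figure D4:**
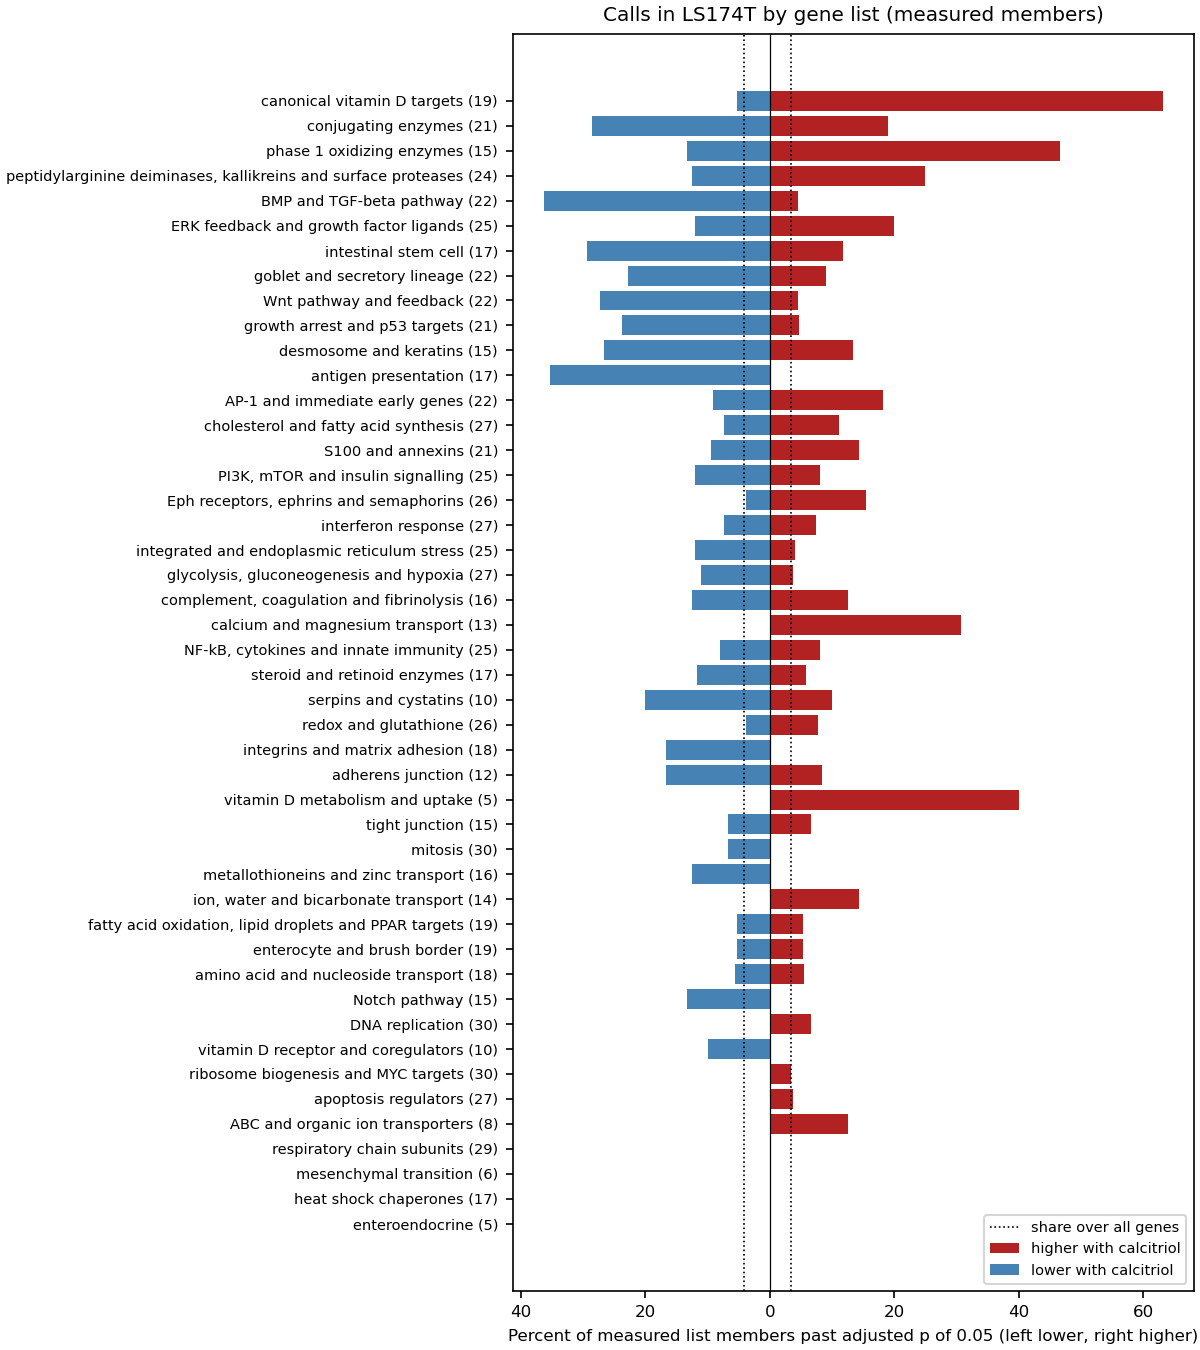
Percent of the measured members of each gene list (number in parentheses) that rose (right, red) or fell (left, blue) with calcitriol in LS174T. The dotted lines mark 3.44% higher and 4.14% lower over all genes; canonical targets and phase 1 enzymes reach farthest to the right, and BMP and TGF-beta genes and antigen presentation farthest to the left.

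The largest falls outside these lists were of genes with varied roles. GPR15LG, a ligand made by colon epithelium that attracts T cells, stood at 10.32, 10.30 and 10.34 and at 7.72, 7.93 and 8.47, a 4.86-fold fall (adjusted p = 2.43e-08). C2CD4A stood at 8.50, 8.26 and 8.38 and at 6.64, 6.70 and 6.74, a 3.22-fold fall (adjusted p = 6.13e-09). PTGDR, a receptor of prostaglandin D2, fell 3.18-fold (adjusted p = 2.34e-08). ODAM, SBSPON, GAS7, C1orf116, MTMR11, AHNAK2, CLIC3, FAIM2, GASK1B and DLX5 fell between 2.43-fold and 3.14-fold, with adjusted p-values from 6.7e-08 to 5.61e-05. Among the largest rises outside the lists, RUNDC3B rose 5.63-fold, WDR72 4.86-fold and SLC44A5 3.84-fold (adjusted p = 3.85e-08, 3.14e-08 and 1.93e-06), and HRCT1 was undetected with ethanol and at least 3.17-fold higher (adjusted p = 1.5e-09).

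Genes that changed lay next to each other in places. With 11401 measured genes placed in order along the chromosomes, 168 called genes stood in 74 runs of 2 or more neighbours called in the same direction, and 12 runs held 3 or more. With 3.44% of all genes called higher and 4.14% lower, some such runs arise in any order. How many would arise was not tested. The longest, on chromosome X, held CSTF2, NOX1, XKRX, TRMT2B, TMEM35A and CENPI, all of which rose. NOX1, an oxidase of the colon epithelium that makes superoxide, rose most in it, 2.54-fold, with its 3 probes at 1.47, 0.91 and 1.34 (adjusted p = 1.19e-07 for the brightest), and the others rose by 0.67 to 0.84. The kallikreins KLK15, KLK4, KLK6, KLK7 and KLK8 formed the next on chromosome 19.

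Another run, also on chromosome 19, held CYP4F3, CYP4F12, CYP4F2 and the noncoding RNA UCA1, which rose 2.65-fold (adjusted p = 3.09e-06). On chromosome 4, UGT2B17, UGT2B15, UGT2B10 and UGT2A3 fell side by side. The direction of UGT2B15, UGT2B10 and UGT2A3 was fixed by the detection rule, and probes of this family may read more than 1 of its genes. On chromosome 20, CYP24A1 was flanked by BCAS1, given above as a bound, and by PFDN4, which rose by 0.92 (adjusted p = 0.00062). On chromosome 7, TES, CAV2, CAV1 and MET rose, led by CAV1, the coat protein of caveolae, from 5.67, 5.65 and 6.06 to 7.40, 7.20 and 7.07 (adjusted p = 1.23e-05). A second probe of CAV1 differed by 0.10 and one of CAV2 by -0.04, and the calls of TES and XKRX were lost with 1 array left out (ethanol array 1, 2 or 3 or calcitriol array 3 for TES, and ethanol array 1, calcitriol array 1 or calcitriol array 2 for XKRX; adjusted p up to 0.112 and 0.084).

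Set against the other lines, each with its own ethanol arrays, the LS174T response differed from the mean response of HCT116 and SW480 for 442 of 11408 genes (3.87%), being higher for 231 (2.02%) and lower for 211 (1.85%). Of the 392 genes that rose in LS174T, 218 responded higher than in the other lines by this test, 4 also passed upward in HCT116, where 62 had an unadjusted p under 0.05 in that direction, and 9 in SW480. Over all 11408 genes 0.0438% passed upward and 0.0263% downward in HCT116 by adjusted p, and 0.675% and 1.17% in SW480. The share of all genes at an unadjusted p under 0.05 was not computed, so the counts at that threshold have no share to be set against. Of the 472 that fell, 192 responded lower, 22 also passed downward in SW480 and 0 in HCT116, where 23 had an unadjusted p under 0.05 in limma. The difference contains the LS174T change by which these genes were chosen, so the counts of 218 and 192 lean that way in advance. No ethanol array detected 28 of the 392, and no calcitriol array 23 of the 472. UGT1A1 was among the 10 genes with the smallest p-values for the difference: its change was 1.81 in LS174T, -0.09 in HCT116 and 0.02 in SW480 (adjusted p = 2.95e-08 for the difference), and no array of those lines detected it.

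CYP24A1 rose in all 3 lines, by 1.57 in HCT116 and 1.31 in SW480, where every array detected it, also those given ethanol. In HCT116 PADI3 rose by 1.07 (adjusted p = 0.00119), while in SW480 its difference was -0.03. SULT1C2 rose by 1.38 in HCT116, where GEM, a small GTPase, rose by 0.81 beside 1.31 in LS174T (adjusted p = 0.00916 and 1.45e-06). These 4 were the genes called upward in both lines. PRSS33 also passed upward in SW480 (adjusted p = 3.38e-08), where 3 of 6 arrays detected it, and was detected on no HCT116 array.

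CDH1 lay between the other lines, with 0.40 in HCT116 (adjusted p = 0.159) and 1.23 in SW480 (adjusted p = 2.34e-06), and the difference of -0.03 from their mean did not pass (adjusted p = 0.931). In contrast, 6 genes that rose in LS174T fell in SW480, among them TMPRSS2 (0.60 against -0.59), PAPSS2 (0.42 against -0.91) and HSPA12A (0.45 against -0.42), and RGS2, a brake on G protein signalling, fell by 1.16 in LS174T and rose by 0.83 in SW480. The difference from the mean of the other lines passed for these 4 (adjusted p = 1.5e-05, 0.000524, 0.00473 and 2.5e-05). TMPRSS2 was dim in those lines: 3 of 6 SW480 arrays detected it, with an ethanol mean of 5.98, and no HCT116 array did. The LS174T call of HSPA12A was lost without ethanol array 1 (adjusted p = 0.0509).

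**Figure D5:**
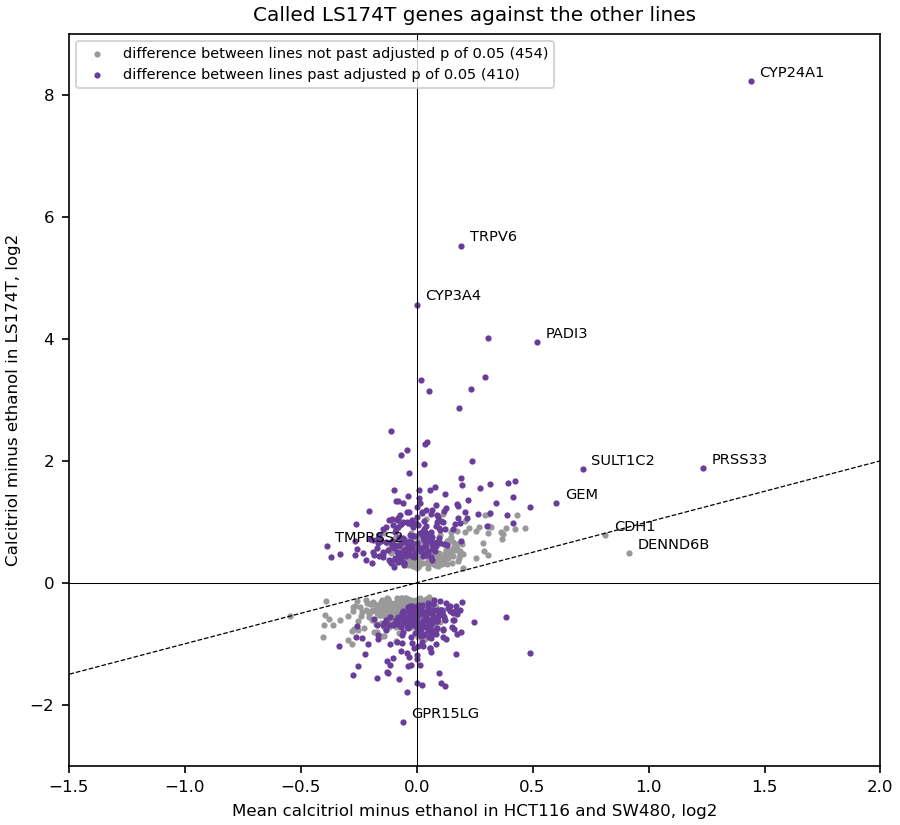
Change with calcitriol in LS174T (vertical axis) against the mean change in HCT116 and SW480 (horizontal axis), both in log2, for the 864 genes called in LS174T. Purple points are the genes whose difference between lines passed the test (218 that rose and 192 that fell), grey points the others, and the dashed line marks equal change; CYP24A1 lies far above it and CDH1 close to it.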

How the data were processed

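Raw probe intensities and detection p-values of the 18 arrays were used as deposited by the authors, per the file headers, with no background correction or normalization in the intensity table. A deposited table of log2 values by the authors, for which the submitters' processing notes name limma and no further step, served as an alternative; it differed from the values below by a median of 0.00279, and all 6 LS174T arrays correlated best with their own column. From the intensities, normexp background correction informed by the detection p-values (offset 16), quantile normalization and log2 were computed on 47323 probes with limma 3.58.1 in R 4.3.3, leaving out 887 rows without an identifier. Of these probes 30113 had 1 symbol in the platform annotation (30074 updated through RefSeq), 8 several and 17202 none listed. limma was fitted with 6 group means over 18 arrays, and the test was moderated with eBayes.

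The fit tested the LS174T contrast and its difference from the mean response of the other lines. Where every array of a group was below detection, a fold is given as a bound against the dimmest detected signal. Precision is limited by the number of arrays. Members and gene lists were chosen with earlier results of these data known. A rule picked the 20 largest rises and falls with non-overlapping arrays, up to 4 called members of each list, VDR, RXRA, CYP24A1, TRPV6, CDH1, CDKN1A and MYC, the 10 smallest p-values for the difference between lines, and genes with probes called in opposite directions, 153 genes in all. The text leaves out some of these genes and some of the lists. Every other gene named was chosen after its values were seen. Of 1225 listed genes 854 were measured. Alternatives changed the background correction, normalization, offset, detection filter, arrays fitted, variance prior, replicate block, source of the values, adjustment unit and each array.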

Additional observations from a re-analysis of the deposited data

Results flagged for a closer look

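The LS174T response differed from the mean response of HCT116 and SW480, by limma's test of the difference itself, for 442 genes. The 10 with the smallest p-values all responded more strongly in LS174T. On the log2 scale, the LS174T response exceeded the mean of the others by 6.78 for CYP24A1, 5.34 for TRPV6, 4.56 for CYP3A4, 3.71 for CYP3A5 and 3.43 for PADI3. For CA2 it exceeded it by 3.3, for FOS by 3.09, for CYP4F3 by 3.08, for PRR5L by 2.68 and for UGT1A1 by 1.84. CYP24A1, TRPV6, CYP3A4, CA2 and PRR5L were undetected on the LS174T ethanol arrays, so these fitted values are no bounds. These genes passed the detection rule only through the LS174T calcitriol arrays, so the direction of their LS174T change was fixed by it.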

How the results depend on the processing

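The count of genes changed in LS174T, 864 in all, was 533 with median scaling (188 lower), 499 with the 6 LS174T arrays alone (253 higher, 246 lower) and 564 with the replicate number as a block (288 lower). The count that differed from the other lines, 442, was 289 with median scaling (93 lower) and 244 with the replicate block (141 higher, 103 lower). Same-numbered LS174T arrays correlated at -0.0651, -0.0298 and -0.118 in their deviations from the group means, and differently numbered ones at up to 0.112. With 3 arrays per group, such weak values show no pairing by number and cannot exclude it. With each LS174T array left out in turn, 569 to 899 genes changed (281 to 485 higher, 266 to 414 lower) and 318 to 537 differed from the other lines (171 to 331 higher, 133 to 206 lower). The CDH1 difference from the other lines, which never passed, changed sign to 0.0709 with median scaling and ranged from -0.112 to 0.0218 with an array left out, turning positive without ethanol array 2 (0.0218) or calcitriol array 3 (0.0108). These fits were followed for 202 called genes, not all of which the text names. Of these, 126 passed in every fit that gave them a value and 76 lost the call in at least 1. The call was lost for 52 with an array left out and for 53 with the 6 arrays alone, and 0 changed sign. With median scaling the falls also numbered 0 in place of 2 among immediate early, mitotic and interferon genes, and 1 in place of 3 in the PI3K and glycolysis lists. Signal over background limits the dim probes.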

Other observations

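Several called genes outside the lists, chosen after their values were seen, add to the picture of LS174T under calcitriol. IRF8, a transcription factor best known in myeloid cells, rose from 9.10, 9.23 and 9.10 to 10.20, 10.47 and 10.69 (limma adjusted p = 6.57e-06). LGALS9, a galectin, rose by 1.19 with its 2 probes at 1.16 and 1.19 (adjusted p = 0.00024), and THBS1, a matrix glycoprotein, by 0.99 (adjusted p = 0.000468). SLC34A3, a phosphate transporter of the kidney, was undetected with ethanol and at least 1.81-fold higher with calcitriol (adjusted p = 3.39e-05). MYCN, a relative of MYC, fell from 8.55, 8.34 and 8.32 to 7.43, 7.26 and 7.41 on its brighter probe (adjusted p = 1.93e-06), while the other probe differed by -0.12.

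Genes of caveolae did not all move one way. CAV1 and CAV2 rose by 1.43 and 0.88 and the coat protein gene CAVIN1 by 0.88 (adjusted p = 1.03e-05), while CAVIN3 fell by 0.85 (adjusted p = 0.00106). ATP2B1-AS1, annotated next to the calcium pump gene ATP2B1, rose by 1.03 beside it (adjusted p = 0.00196). SLC16A5, GPRC5A and PHLDA2 rose in SW480 as well, by 0.74, 0.69 and 0.68 there against 0.98, 0.80 and 0.83 in LS174T.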
